A study of Homo sapiens with 4 samples.

Results

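The sirtuin family comprises 7 genes, SIRT1 to SIRT7, which were taken by gene symbol from the count tables of HepG2, a human hepatocellular carcinoma (HCC) cell line. All 7 of the 7 symbols sought were found, each on a single entry, among 24462 gene symbols in all. The 4 libraries, 1 library per condition, came from cells given DMSO, the solvent, or PD0332991 (PD-0332991 in the labels), an inhibitor of CDK4 and CDK6, and from cells transfected with scrambled siRNA or with siRNA against CDK4 and CDK6 (CDK4/6 KD). All cells were HepG2 grown in RPMI medium with serum and antibiotics. The dose of PD0332991, the times and the number of cultures behind the sequenced RNA are not given in the sources used here, and each condition is a single library of a single cell line.

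Sirtuins are NAD+-dependent enzymes that remove acetyl and other acyl groups from lysine residues, so that their activity follows the supply of NAD+. SIRT1, SIRT6 and SIRT7 act mainly in the nucleus, SIRT2 mainly in the cytosol, and SIRT3, SIRT4 and SIRT5 in mitochondria. In liver cells they are known for the control of fuel use, redox balance, chromatin and ribosomal RNA synthesis, and SIRT3, the main mitochondrial deacetylase, was the gene of interest of the study.

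Library totals ran from 8983848 to 11176880 reads, and all 7 sirtuins had at least 10 reads in every library. The libraries were made with a 3′ tag kit, in which a transcript gives reads near its poly(A) end. Levels are therefore given as CPM, read counts scaled to a common library size with TMM factors and not divided by gene length, and levels of different genes are compared on that tag scale. Because each condition had 1 library, no p-value was computed, and the 95% intervals are exact counting intervals (Poisson for a level, Clopper-Pearson for a ratio of reads, a fold change or a share), except that ratios of fold changes between the arms have approximate ones. They cover counting error only and leave out PCR copies and differences between cultures. Reads of CDK4 numbered 2754 in DMSO, 2344 in PD0332991, 3789 in scrambled siRNA and 814 after its knockdown (fold change against scrambled siRNA: 0.203, 95% interval 0.188 to 0.219). Those of CDK6 numbered 4707, 4361, 5734 and 1464 (fold change: 0.241, 95% interval 0.228 to 0.256), so that both targets were low in the library labelled as their knockdown. All 10 hepatocyte markers examined were detected in each library, the lowest being HNF4A at 148 to 202 CPM, and none was at 0. Their summed level was 17440 CPM in DMSO, 20031 in PD0332991, 17790 in scrambled siRNA and 22299 in CDK4/6 KD. Of the 10, 9 had an interval above 1 (30.0% of all genes) and 1 below 1 (31.9%) in CDK4/6 KD (median log2 fold change: 0.27, highest FGB with a fold change of 2.62, lowest APOB with 0.868), and 8 above (28.1%) and 2 below (28.6%) after PD0332991 (median: 0.39). Between the controls 6 lay above 1 (28.3% of all genes) and 3 below 1 (28.0%). Their part in the results on sirtuins was not tested, and in bulk RNA fewer cells of a kind and less RNA per cell cannot be told apart.

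SIRT3, SIRT5 and SIRT7 were the abundant sirtuins of HepG2, SIRT1, SIRT2 and SIRT6 were several times lower, and SIRT4 was close to the detection limit. In DMSO the order of the levels was SIRT3, SIRT7, SIRT5, SIRT1, SIRT6, SIRT2 and SIRT4. SIRT7 and SIRT5 could not be ordered there by counting error (ratio of reads: 1.01, 95% interval 0.888 to 1.15), whereas the step from SIRT5 down to SIRT1 was 2.8-fold (95% interval 2.35 to 3.36). After PD0332991 the order was the same, with overlapping neighbours at SIRT3 and SIRT7 (ratio: 1.04, 95% interval 0.919 to 1.18), SIRT7 and SIRT5 (ratio: 1.07, 95% interval 0.944 to 1.22) and SIRT1 and SIRT6 (ratio: 1.14, 95% interval 0.893 to 1.45). In scrambled siRNA, SIRT7 led and was at 1.17-fold the level of SIRT3 (95% interval 1.06 to 1.3). SIRT3 was at 1.4-fold the level of SIRT5 (95% interval 1.25 to 1.57), and SIRT5 at 3.18-fold that of SIRT1 (95% interval 2.65 to 3.83). Between SIRT1, SIRT6 and SIRT2, which came next, no step was beyond counting error. In CDK4/6 KD, SIRT3 led again, SIRT5 was level with SIRT7 (ratio: 1.04, 95% interval 0.93 to 1.15), and SIRT6 lay below SIRT2 (ratio of SIRT2 to SIRT6: 1.68, 95% interval 1.25 to 2.27), the reverse of DMSO.

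**Figure D1:**
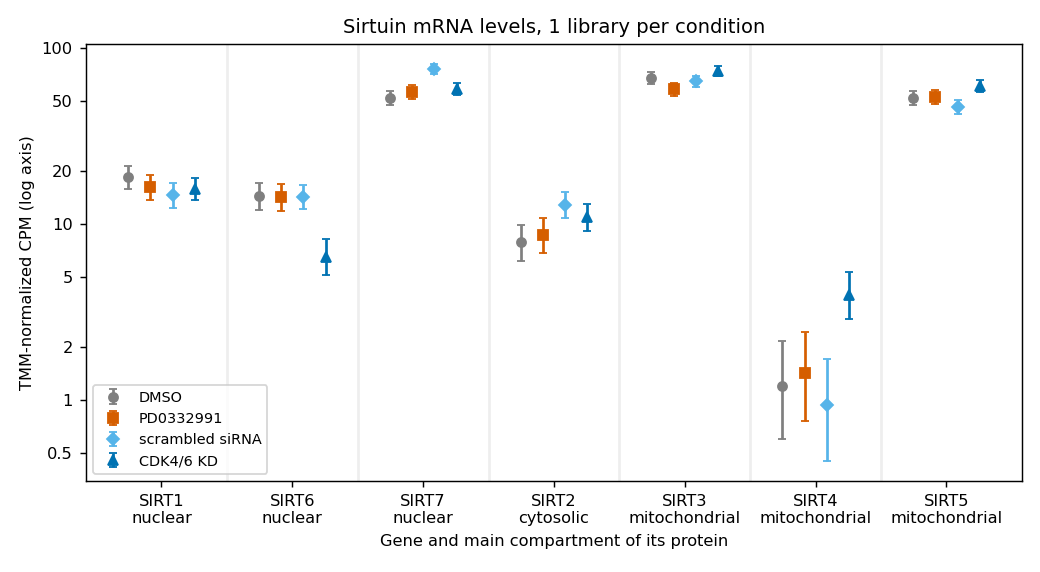
Level of each sirtuin in each library in TMM-normalized CPM on a log axis, with exact 95% Poisson intervals as bars and 1 point per library. SIRT4 and SIRT6 are the members whose CDK4/6 KD interval lies clear of the other 3 libraries, SIRT4 at 3.98 CPM above them and SIRT6 at 6.54 CPM below them.

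In CDK4/6 KD, SIRT4 lay more than 2-fold above scrambled siRNA and SIRT6 more than 2-fold below it, and the other 5 sirtuins differed by less. That is 1 of 7 members higher, where 9.19% of 13617 genes were (those with 10 reads or more in 1 of the libraries compared), and 1 of 7 lower, where 7.62% were. The interval lay above 1 for SIRT3, SIRT4 and SIRT5, that is 3 of 7 against 30.0% of all genes, and below 1 for SIRT6 and SIRT7, that is 2 of 7 against 31.9%. Over 7 genes, each count lies within 1 gene of what the share of all genes would give. The median log2 fold change was 0.12 over the 7 sirtuins and -0.0036 over all genes.

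After PD0332991, no sirtuin differed from DMSO by 2-fold, where 7.49% of 13443 genes lay 2-fold or more above it and 7.07% below it. SIRT3 was the 1 of 7 members with an interval below 1 (28.6% of all genes), and 0 of 7 had an interval above 1 (28.1% of all genes). The median log2 fold change was 0.020 over the 7 sirtuins and 0.018 over all genes. The range of the fold changes over the family, from 0.867 for SIRT3 to 1.18 for SIRT4, was narrower than in CDK4/6 KD. There it ran from 0.459 for SIRT6 to 4.09 for SIRT4. Both upper ends were thus SIRT4, which had few reads and wide intervals (0.49 to 2.92 after PD0332991 and 2.11 to 9.47 in CDK4/6 KD).

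The control libraries, scrambled siRNA and DMSO, also differed at some sirtuins. None of the 7 differed by 2-fold, where scrambled siRNA lay 2-fold or more above DMSO at 5.3% of 13303 genes and below it at 6.64%. The interval lay above 1 for SIRT2 and SIRT7, 2 of 7 members against 28.3% of all genes, and below 1 for SIRT1, 1 of 7 against 28.0%. SIRT3, SIRT5 and SIRT6 had intervals that included 1 between the controls, and SIRT4 had too few reads for a narrow one. CDK4/6 KD is set against scrambled siRNA and PD0332991 against DMSO, so that both comparisons share a library with this one. Fold changes against the other control are given beside the sirtuins and beside some of the named genes. A named gene given without one may still depend on the control that was used.

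**Figure D2:**
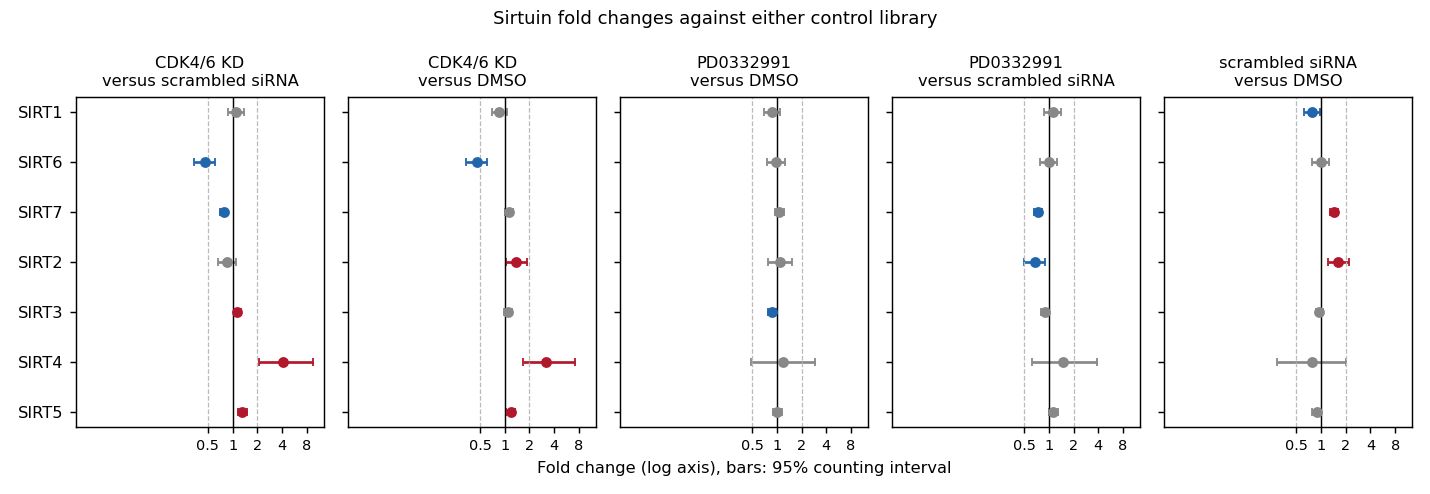
Fold change of each sirtuin on a log axis in 5 comparisons, with exact 95% counting intervals as bars (red: interval above 1; blue: below 1; grey: includes 1; dashed lines: 2-fold). SIRT6 and SIRT4 keep their direction in CDK4/6 KD against either control, while SIRT7 and SIRT2 follow the control that was used.

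Among the nuclear sirtuins, SIRT6 differed most. SIRT6 is a chromatin-bound deacetylase known for the upkeep of the genome and the repression of glycolytic genes. Its gene is on the minus strand of chromosome 19 (4174109 to 4182604), in the coordinates of GENCODE 29 on GRCh38 used for all positions of genes. SIRT6 had 132 reads in DMSO, 130 in PD0332991, 153 in scrambled siRNA and 74 in CDK4/6 KD, or 14.4, 14.3, 14.3 and 6.54 CPM. The level was thus the same within counting error in 3 libraries, and the CDK4/6 KD library alone was low. The fold change in CDK4/6 KD was 0.459 (95% interval 0.342 to 0.607) against scrambled siRNA and 0.454 (95% interval 0.336 to 0.606) against DMSO, at percentile 6.01 of the log2 fold changes of all genes in the first comparison. After PD0332991 it was 0.988 against DMSO (95% interval 0.77 to 1.27) and 0.999 against scrambled siRNA (95% interval 0.784 to 1.27). Between the controls it was 0.99 (95% interval 0.779 to 1.26). The fold change in the knockdown arm was 0.465 times that in the drug arm (95% counting interval 0.321 to 0.671).

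SIRT7, a nucleolar deacetylase that binds RNA polymerase I, is on the minus strand of chromosome 17 (81911939 to 81921323). It had 479 reads in DMSO, 513 in PD0332991, 814 in scrambled siRNA and 666 in CDK4/6 KD, or 52.4, 56.3, 76.1 and 58.8 CPM. Scrambled siRNA was the library that stood apart, at 1.45-fold the level in DMSO (95% interval 1.29 to 1.63). SIRT7 in CDK4/6 KD lay below scrambled siRNA (fold change: 0.774, 95% interval 0.697 to 0.858), and at 1.12-fold the level of DMSO (95% interval 0.996 to 1.26). After PD0332991 the fold change was 1.07 against DMSO (95% interval 0.947 to 1.22) and 0.741 against scrambled siRNA (95% interval 0.662 to 0.828). The level after both ways of targeting CDK4/6 lay between those of the controls.

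SIRT1, the deacetylase of p53, FOXO factors and PGC-1α, is on the plus strand of chromosome 10 (67884669 to 67918390). It had 169 reads in DMSO, 148 in PD0332991, 156 in scrambled siRNA and 180 in CDK4/6 KD, or 18.5, 16.3, 14.6 and 15.9 CPM. Both intervals included 1, with a fold change of 1.09 in CDK4/6 KD (0.875 to 1.36) and of 0.879 after PD0332991 (0.7 to 1.1). With the other control the fold changes crossed to the other side of 1, at 0.86 and 1.11. Differences of SIRT1 within these intervals were not detectable at this depth.

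SIRT2, the cytosolic member, deacetylates α-tubulin and metabolic enzymes and is on the minus strand of chromosome 19 (38878555 to 38899862). It had 72 reads in DMSO, 79 in PD0332991, 138 in scrambled siRNA and 124 in CDK4/6 KD, or 7.88, 8.68, 12.9 and 10.95 CPM. In CPM both transfected libraries were higher than both libraries of the drug arm. The 95% Poisson interval of CDK4/6 KD (9.11 to 13.1 CPM) nonetheless overlapped those of DMSO (6.17 to 9.92) and PD0332991 (6.87 to 10.8). Scrambled siRNA was 1.63-fold above DMSO (95% interval 1.22 to 2.21), the largest difference of a sirtuin between the controls. Against its own control the fold change was 0.85 in CDK4/6 KD (95% interval 0.661 to 1.09) and 1.1 after PD0332991 (95% interval 0.79 to 1.54). Against the other control it was 1.39 (95% interval 1.03 to 1.89) and 0.674 (95% interval 0.504 to 0.893). Transfection and arm cannot be told apart in these libraries.

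Of the mitochondrial sirtuins, SIRT3 is on the minus strand of chromosome 11 (215458 to 236931) and has 5 annotated 3′ ends of coding transcripts, which a count per symbol does not tell apart. It had 617 reads in DMSO, 533 in PD0332991, 694 in scrambled siRNA and 840 in CDK4/6 KD, or 67.5, 58.5, 64.9 and 74.2 CPM. The PD0332991 library was lower than both controls and the CDK4/6 KD library higher than both, within a span of 1.27-fold over the 4 libraries. The fold change was 1.14 in CDK4/6 KD (95% interval 1.03 to 1.27) and 0.867 after PD0332991 (95% interval 0.771 to 0.975). Both intervals came to include 1 with the other control, where the fold changes were 1.1 (95% interval 0.989 to 1.22) and 0.903 (95% interval 0.805 to 1.01). The fold change in the knockdown arm was 1.32 times that in the drug arm (95% counting interval 1.13 to 1.54).

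SIRT3 shares its promoter with PSMD13, a subunit of the proteasome, which is transcribed in the opposite direction from chromosome 11 (236546 to 252984 in GENCODE 29). In RefSeq on GRCh38.p14 the starts lie at 236931 for SIRT3 and 236976 for PSMD13. The bases between these RefSeq starts, chr11:236932-236975, are shown on the SIRT3 strand, since they are the short stretch that separates the starts. In GENCODE 29 the genes overlap instead, since PSMD13 begins within SIRT3, and an exon of PSMD13 overlaps the bases shown. Capitals mark a match to the ETS word CCGGAAG, which the opposite strand carries.
SIRT3-PSMD13: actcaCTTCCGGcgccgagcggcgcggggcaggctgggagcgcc

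PSMD13 had 990 reads in DMSO, 882 in PD0332991, 2023 in scrambled siRNA and 1234 in CDK4/6 KD, or 108, 96.9, 189 and 109 CPM. The scrambled siRNA library was high, at 1.74-fold the level in DMSO (95% interval 1.62 to 1.88), and the other 3 were close together. In that comparison the fold change of SIRT3 was 0.961 (95% interval 0.861 to 1.07). In CDK4/6 KD against scrambled siRNA the neighbours lay on opposite sides of 1, since PSMD13 had a fold change of 0.577 (95% interval 0.537 to 0.619). Against DMSO the fold change of PSMD13 in CDK4/6 KD was 1.01 (95% interval 0.925 to 1.1). After PD0332991 both were slightly lower than in DMSO, PSMD13 with a fold change of 0.894 (95% interval 0.816 to 0.98). With quantile normalization that interval of PSMD13 included 1 (0.848 to 1.02). Against scrambled siRNA the fold change of PSMD13 after PD0332991 was 0.512 (95% interval 0.473 to 0.555).

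**Figure D3:**
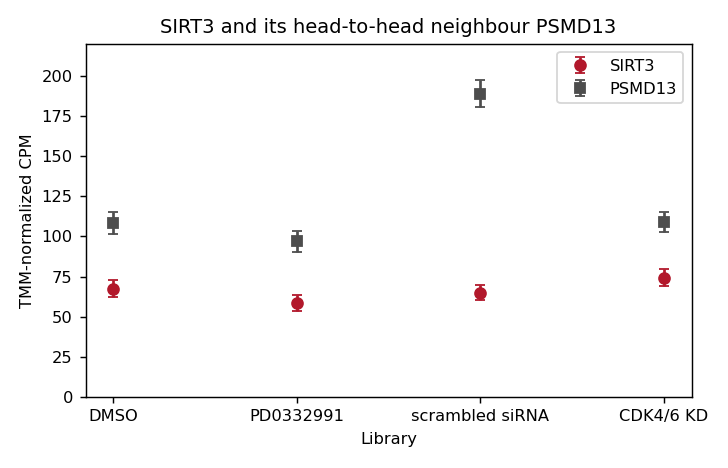
Level of SIRT3 (circles) and of its head-to-head neighbour PSMD13 (squares) in each library in TMM-normalized CPM, with exact 95% Poisson intervals as bars. PSMD13 stands at 189 CPM in scrambled siRNA against 96.9 to 109 in the others, while SIRT3 stays between 58.5 and 74.2.

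SIRT5, which removes succinyl, malonyl and glutaryl groups, is on the plus strand of chromosome 6 (13574529 to 13615158). It had 474 reads in DMSO, 479 in PD0332991, 496 in scrambled siRNA and 690 in CDK4/6 KD, or 51.9, 52.6, 46.4 and 61.0 CPM. The CDK4/6 KD library was higher than the other 3, which lay close together. The fold change in CDK4/6 KD was 1.31 against scrambled siRNA (95% interval 1.17 to 1.48) and 1.17 against DMSO (95% interval 1.04 to 1.32). After PD0332991 it was 1.01 against DMSO (95% interval 0.891 to 1.15) and 1.13 against scrambled siRNA (95% interval 0.999 to 1.29). An antisense gene of GENCODE 29, AL441883.1, overlaps the last 500 bases of a SIRT5 transcript on the opposite strand. The strand setting of the read counting is not given in the sources used here.

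SIRT4, which acts on glutamate dehydrogenase and other mitochondrial enzymes by ADP-ribosylation and deacylation, is on the plus strand of chromosome 12 (120302316 to 120313249). It had 11 reads in DMSO, 13 in PD0332991, 10 in scrambled siRNA and 45 in CDK4/6 KD, or 1.2, 1.43, 0.935 and 3.98 CPM. The 95% Poisson interval in CDK4/6 KD, 2.9 to 5.32 CPM, lay above those of the other 3 libraries, whose upper ends were 2.15, 2.44 and 1.72 CPM. The fold change in CDK4/6 KD was 4.09 against scrambled siRNA (95% interval 2.11 to 9.47) and 3.21 against DMSO (95% interval 1.68 to 7.08), at percentile 97.7 of the log2 fold changes of all genes in the first comparison. After PD0332991 it was 1.18 (0.912 with quantile normalization), and its 95% interval from 0.49 to 2.92 included 2-fold in either direction. Against scrambled siRNA it was 1.5 after PD0332991 (95% interval 0.619 to 3.89). The small RNA gene RNU6-1088P overlaps the last 500 bases of SIRT4 on the opposite strand. The ratio of the fold changes in the knockdown and drug arms was 3.47 (95% counting interval 1.21 to 9.97).

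The promoters of SIRT4 and SIRT6 are shown because these were the members past 2-fold in CDK4/6 KD, in opposite directions. The windows hold the 250 bases before the RefSeq start on GRCh38.p14, at chr12:120302071-120302320 on the plus strand for SIRT4 and chr19:4182564-4182813 on the minus strand for SIRT6, in each case for the start nearest to that of GENCODE. Both strands were searched for the E2F words TTTCCCGC, TTTCGCGC, TTTGCCGC and TTTGGCGC, the ETS word CCGGAAG, the cyclic AMP response element TGACGTCA, the E-box CACGTG, the GC box GGGCGG and the cell cycle homology word TTTGAA. Capitals mark every match, and the E2F match in SIRT6 overlaps a GC box.
SIRT4: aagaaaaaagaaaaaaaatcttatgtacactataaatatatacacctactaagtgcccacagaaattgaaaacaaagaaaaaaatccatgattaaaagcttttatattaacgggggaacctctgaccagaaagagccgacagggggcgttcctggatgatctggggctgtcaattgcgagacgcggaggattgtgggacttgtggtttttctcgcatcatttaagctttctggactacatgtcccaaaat
SIRT6: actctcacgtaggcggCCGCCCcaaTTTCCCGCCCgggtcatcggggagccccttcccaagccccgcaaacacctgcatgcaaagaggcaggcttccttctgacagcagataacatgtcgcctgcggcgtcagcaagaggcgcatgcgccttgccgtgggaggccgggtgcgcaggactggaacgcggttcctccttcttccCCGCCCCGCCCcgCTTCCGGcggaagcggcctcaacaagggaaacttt

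The SIRT6 window held 1 E2F word, 1 ETS word and 4 GC boxes, and the SIRT4 window held none of the words searched. Over the 35116 windows of the same length in the table, 2.79% held an E2F word, 8.52% the ETS word and 42.6% a GC box. The cyclic AMP response element was held by 1.65% of windows, the E-box by 6.34% and the cell cycle homology word by 13.3%. Of the 6 sirtuin windows looked at, 1 for each gene, that of SIRT6 alone held an E2F word. SIRT4, SIRT5 and SIRT6 had 2 windows each, of which the one farther from the GENCODE start was left out. The SIRT4 window also differed in base composition, with 39.6% G and C and 7 CpG pairs. Those of SIRT1, SIRT2, SIRT3, SIRT5 and SIRT6 had 72%, 58.4%, 68.4%, 78% and 65.6% G and C, where the median over all windows was 58%. A match is a description of these letters and not evidence of binding.

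By compartment, the mitochondrial members held more of the sirtuin reads, and the nuclear members fewer, in CDK4/6 KD than in scrambled siRNA. All 7 genes together had 214 CPM in DMSO, 208 in PD0332991, 230 in scrambled siRNA and 231 in CDK4/6 KD, so that the sum over the family differed little. SIRT3, SIRT4 and SIRT5 held 48.8% of the sirtuin reads in scrambled siRNA (95% interval 46.8 to 50.8) and 60.1% in CDK4/6 KD (95% interval 58.2 to 62.0). They held 56.4% in DMSO (95% interval 54.2 to 58.6) and 54.1% in PD0332991 (95% interval 51.8 to 56.4). The interval in CDK4/6 KD thus overlapped that in DMSO and lay above the other 2. SIRT1, SIRT6 and SIRT7 held 39.9% in DMSO, 41.7% in PD0332991, 45.6% in scrambled siRNA and 35.1% in CDK4/6 KD. The share of SIRT2 ran from 3.68% in DMSO to 5.61% in scrambled siRNA.

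**Figure D4:**
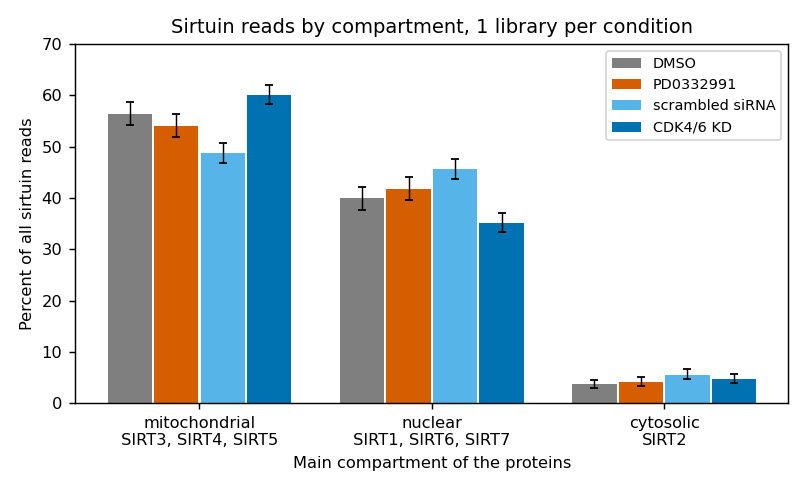
Percent of all sirtuin reads that fell on the mitochondrial, nuclear and cytosolic members in each library, with exact 95% Clopper-Pearson intervals as bars. The mitochondrial share is lowest in scrambled siRNA, at 48.8%, and highest in CDK4/6 KD, at 60.1%.

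The genes whose 4-library pattern was most like that of each sirtuin were sought among those with at least 50 reads in every library, by the Euclidean distance between log2 CPM centred on each gene's mean. With 4 values per gene the likeness is a description only. For SIRT3 they were PTPN11 (distance: 0.0094) and PRDX2 (distance: 0.025), of 9792 genes searched. PTPN11 had 89.2 CPM in DMSO, 77.2 in PD0332991, 85.6 in scrambled siRNA and 98.7 in CDK4/6 KD. For SIRT4 they were NR1D2 and DUSP8 at larger distances of 0.238 and 0.286, NR1D2 having 5.47, 8.13, 4.67 and 19.1 CPM in the same order of libraries. UGCG (34.4, 35.9, 33.6 and 16.1 CPM) and CEP89 were nearest to SIRT6, at 0.0756 and 0.0881. SIRT1 was nearest to LARP1 and ZC3H13, SIRT2 to ATP6V1D and SRPRB, SIRT5 to CTBP1 and PSMD9, and SIRT7 to CDK5RAP1 and AP4B1. Within the family, SIRT2 and SIRT7 were each other's nearest member (distance: 0.243), as were SIRT3 and SIRT5 (distance: 0.244). GENCODE 29 lists pseudogenes of PRDX2, DUSP8, LARP1 and CDK4 and none of the sirtuins.

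Genes of NAD+ supply and use, on which sirtuin activity depends, had more intervals above 1 than below 1 in CDK4/6 KD. Of 29 listed, 21 passed the filter, 11 had an interval above 1 (30.0% of all genes) and 1 below 1 (31.9% of all genes), and the median log2 fold change was 0.24. Between the controls, 5 of 21 lay above 1 (28.3% of all genes) and 8 below 1 (28.0%). NMRK1, which phosphorylates nicotinamide riboside, counted 55 reads after CDK4/6 KD, against 8 in its control (fold change: 6.16, 95% interval 3.08 to 15.8). NMRK1 was low in scrambled siRNA, and against DMSO its fold change was 2.31. PARP1, a large consumer of NAD+, was the 1 gene with an interval below 1 (fold change: 0.744, 95% interval 0.697 to 0.794). After PD0332991, 10 of 22 genes had an interval above 1 (28.1% of all genes) and 5 below 1 (28.6%), with a median of 0.17. NMNAT1, a nuclear enzyme of NAD+ synthesis, counted 239 reads after PD0332991 and 110 in its control (fold change: 2.18, 95% interval 1.73 to 2.76, or 1.33 against scrambled siRNA). PARP2 was lower (fold change: 0.488, 95% interval 0.412 to 0.577). NMRK1 was higher after PD0332991 also (fold change: 2.45, 95% interval 1.43 to 4.48), and PARP1 lower (fold change: 0.666, 95% interval 0.619 to 0.717). The intervals of NMNAT1 (0.979 to 1.42) and PARP2 (0.802 to 1.03) included 1 in CDK4/6 KD against scrambled siRNA. For NMNAT1, scrambled siRNA was itself 1.64 times DMSO (95% interval 1.29 to 2.08). NMNAT1 had 23.2 CPM in CDK4/6 KD and 12.0 CPM in DMSO. GENCODE 29 lists 5 pseudogenes of NMNAT1 and 2 of PARP1, which makes their counts less certain.

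The zinc-dependent histone deacetylases are the other deacetylase family. Of 11 listed, 10 passed the filter, 3 had an interval above 1 and 4 below 1 in CDK4/6 KD, close to the shares of all genes (30.0% and 31.9%), and the median log2 fold change was -0.095. HDAC5, a class IIa member, counted 291 reads after CDK4/6 KD and 83 in its control (fold change: 3.3, 95% interval 2.59 to 4.28). HDAC3, the enzyme of the nuclear corepressor complex, was lower (fold change: 0.58, 95% interval 0.515 to 0.651). After PD0332991, 5 of 10 had an interval above 1 (28.1% of all genes) and 1 below 1 (28.6%), with a median of 0.19. HDAC10 was the firmest of those above (fold change: 1.86, 95% interval 1.31 to 2.69), and HDAC2 was the 1 below (fold change: 0.715, 95% interval 0.665 to 0.767). HDAC5 lay above 1 after PD0332991 also (95% interval 1.04 to 1.8), and HDAC2 below 1 in CDK4/6 KD (95% interval 0.775 to 0.882). The intervals of HDAC3 after PD0332991 and of HDAC10 in CDK4/6 KD included 1. For scrambled siRNA against DMSO, 2 of 10 lay above 1 (28.3% of all genes) and 1 below 1 (28.0%).

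Lysine acetyltransferases, which add the groups that sirtuins remove, were examined in the same way. In CDK4/6 KD, 3 of the 12 that passed the filter of 13 listed had an interval above 1 (30.0% of all genes) and 5 below 1 (31.9%), with a median log2 fold change of -0.067. KAT5 was higher (fold change: 1.7, 95% interval 1.52 to 1.9, or 1.21 against DMSO) and KAT6A lower (fold change: 0.741, 95% interval 0.681 to 0.805). After PD0332991, 4 of 13 lay above 1 and 4 below 1, close to the shares of all genes (28.1% and 28.6%), with a median of -0.0016. HAT1, which acetylates newly made histone H4, counted 75 reads after PD0332991 and 279 in its control (fold change: 0.271, 95% interval 0.206 to 0.349). ATAT1, the α-tubulin acetyltransferase whose mark SIRT2 removes, was higher (fold change: 1.48, 95% interval 1.22 to 1.8). ATAT1 was higher in CDK4/6 KD also (fold change: 1.69, 95% interval 1.41 to 2.03), and HAT1 lower (fold change: 0.789, 95% interval 0.647 to 0.96). After PD0332991, KAT6A lay above 1 (95% interval 1.07 to 1.25), and the interval of KAT5 included 1 (0.966 to 1.22). For scrambled siRNA against DMSO, 0 of 12 lay above 1 (28.3% of all genes) and 6 below 1 (28.0%).

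Of 20 genes known to regulate sirtuin expression or activity, 19 passed the filter. In CDK4/6 KD, 6 had an interval above 1 and 7 below 1, close to the shares of all genes (30.0% and 31.9%), with a median log2 fold change of 0.043. PPARA, the fatty acid sensor, was higher (fold change: 1.87, 95% interval 1.62 to 2.16, or 1.37 against DMSO). It was higher after PD0332991 also (fold change: 1.46, 95% interval 1.27 to 1.68). E2F1, the cell cycle factor held in check by Rb, counted 393 reads after CDK4/6 KD and 827 in its control (fold change: 0.45, 95% interval 0.397 to 0.507). After PD0332991, 7 lay above 1 (28.1% of all genes) and 9 below 1 (28.6%), with a median of 0.0098. MLXIPL, a glucose-responsive factor, was higher (fold change: 1.67, 95% interval 1.59 to 1.74). UHRF1, a factor that maintains DNA methylation, counted 51 reads after PD0332991 and 525 in its control (fold change: 0.0983, 95% interval 0.0716 to 0.13, or 0.152 against scrambled siRNA). E2F1 counted 89 and 770 (fold change: 0.117, 95% interval 0.0921 to 0.145). UHRF1 was lower in CDK4/6 KD also (fold change: 0.438, 95% interval 0.365 to 0.522), and MLXIPL higher (fold change: 1.29, 95% interval 1.23 to 1.36). For scrambled siRNA against DMSO, 4 of 19 lay above 1 (28.3% of all genes) and 12 below 1 (28.0%), with a median of -0.28.

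Of 29 genes of proteins that mitochondrial sirtuins deacylate, 27 passed the filter in CDK4/6 KD, 10 with an interval above 1 (30.0% of all genes) and 10 below 1 (31.9%), and the median log2 fold change was -0.037. GLUD1, which encodes the glutamate dehydrogenase that SIRT4 inhibits and SIRT3 deacetylates, counted 4666 reads after CDK4/6 KD and 2470 in its control (fold change: 1.79, 95% interval 1.7 to 1.88), or a fold change of 1.29 against DMSO. After PD0332991, 9 of 26 lay above 1 (28.1% of all genes) and 10 below 1 (28.6%), with a median of 0.037. SHMT2, a mitochondrial serine enzyme, was higher (fold change: 2.2, 95% interval 2.07 to 2.34, or 1.48 against scrambled siRNA), and MCCC2, of leucine breakdown, lower (fold change: 0.677, 95% interval 0.605 to 0.758). For scrambled siRNA against DMSO, 16 of 27 lay above 1 (28.3% of all genes) and 8 below 1 (28.0%), with a median of 0.23. GENCODE 29 lists 5 pseudogenes of GLUD1.

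The genes of nuclear and cytosolic targets had more intervals below 1 than above 1 in both arms, relative to an all-gene median of -0.0036 in CDK4/6 KD and 0.018 after PD0332991. Of 36 listed, 35 were found in the tables and passed the filter. In CDK4/6 KD, 10 had an interval above 1 (30.0% of all genes) and 18 below 1 (31.9%), with a median log2 fold change of -0.35. Of the 35, 2 lay 2-fold or more above scrambled siRNA (9.19% of all genes) and 6 below it (7.62%). After PD0332991, 10 lay above 1 (28.1% of all genes) and 19 below 1 (28.6%), with a median of -0.32. Of the 35, 8 lay 2-fold or more below DMSO (7.07% of all genes). For scrambled siRNA against DMSO, 13 of 35 lay above 1 (28.3% of all genes) and 12 below 1 (28.0%), with a median of -0.044. PKM, pyruvate kinase, lay most firmly below its control in CDK4/6 KD (fold change: 0.341, 95% interval 0.328 to 0.355), with 0.537 as the fold change against DMSO and 5 pseudogenes in GENCODE 29. NR1H4, the bile acid receptor, counted 337 reads after CDK4/6 KD and 79 in its control (fold change: 4.01, 95% interval 3.15 to 5.22). It was low in scrambled siRNA, and against DMSO its fold change was 1.06. After PD0332991, E2F1 lay most firmly below DMSO, and PPARGC1A, the mitochondrial coactivator PGC-1α, most firmly above it (fold change: 1.97, 95% interval 1.58 to 2.47). PPARGC1A was low in scrambled siRNA, at 0.481 times DMSO, and its fold change after PD0332991 was 4.1 against that control.

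**Figure D5:**
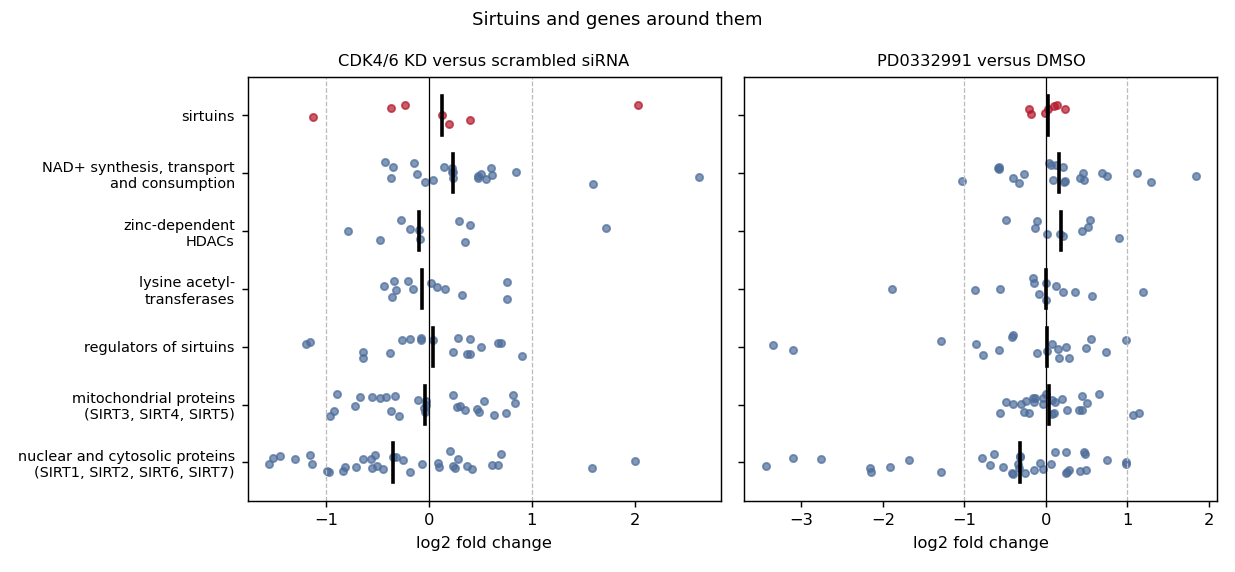
Log2 fold change of each gene that passed the filter, for the sirtuins (red) and 6 lists of genes around them (blue), with the median of each list as a black bar and 2-fold as dashed lines. Black bars of the nuclear and cytosolic targets lie at -0.35 and -0.32, and the sirtuins after PD0332991 sit close to 0.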

How the data were processed

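RNA of 4 HepG2 libraries was sequenced as QuantSeq 3′ tags. The deposited values are whole-number read counts for each gene symbol, which the authors left unnormalized, with 1 library in each file. Per the labels, Bowtie2, edgeR and the build hg19 were used, with no versions or roles given. The read counter, the annotation and the strand setting are not given in the sources used here.

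Counts of repeated symbols (286 of 24462) were summed, and all 7 sirtuins had 1 entry each. Library sizes were scaled with TMM factors of 0.957 to 1.03 (edgeR 4.0.16, R 4.3.3). For fold changes, 0.5 reads (in proportion to library size) were added, and a gene needed 10 reads in 1 of the libraries compared. With 1 library per condition the planned comparisons carry no test. Exact 95% intervals came from scipy 1.17.1. Ratios of fold changes between arms used a normal approximation on the log scale. The procedure was tested on simulated Poisson counts, which hold counting error and no differences between cultures.

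The members, the 6 gene lists and the hepatocyte markers were chosen with earlier results of these data known. From each list the gene most firmly above and the gene most firmly below its control per arm were named, ranked by the interval end nearest to 1, with CDK4, CDK6, PSMD13 and the 2 genes nearest in pattern to each sirtuin. A gene that this rule names is not reported here. Genes are named by symbol only, so positions come from GENCODE 29 (GRCh38) and promoters from RefSeq (GRCh38.p14), in which 6 of the 7 sirtuins were matched. KMT5A, of the nuclear and cytosolic list, was not found under that symbol. Alternatives were DESeq2 1.42.0 size factors, total counts, quantile normalization (limma 3.58.1), 5 added reads, the control of the other arm, a 1.5-fold threshold, whole intervals past 2-fold, and no filter or 50 reads.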

Additional observations from a re-analysis of the deposited data

Results flagged for a closer look

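SIRT3 was picked out because its fold change lay on opposite sides of 1 in the knockdown and drug arms, each with an interval that left out 1. It was 1.14 in CDK4/6 KD against scrambled siRNA (694 and 840 reads) and 0.867 after PD0332991 against DMSO (617 and 533 reads). The difference between the arms was not tested, since each condition had 1 library, and both intervals included 1 with the other control.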

How the results depend on the processing

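No paired analysis was possible because each condition had 1 library. For the same reason no replicate could be left out. Of 98 sirtuin fold changes under alternatives of scaling, pseudocount and control, 9 had an interval on another side of 1, and 6 of those 9 came from the control of the other arm. With that control SIRT7 in CDK4/6 KD turned from 0.774 to 1.12 and PSMD13 from 0.577 to 1.01 (PSMD13 was added after the data were examined). SIRT3 ran from 1.1 to 1.23 in CDK4/6 KD and from 0.86 to 0.911 after PD0332991, and its interval after PD0332991 included 1 also with quantile normalization (0.81 to 1.02). The number of sirtuins past 2-fold in CDK4/6 KD fell from 2 to 1 when an interval was required to end beyond 2-fold, which that of SIRT4 did, and with a filter of 50 reads, which SIRT4 did not pass. At 1.5-fold, 1 sirtuin, SIRT2, differed between the controls. With the control of the other arm, the listed genes past 2-fold rose from 0 to 2 for mitochondrial targets in CDK4/6 KD, and after PD0332991 from 0 to 1 for zinc-dependent histone deacetylases, from 3 to 6 for regulators and from 8 to 13 for nuclear and cytosolic targets. Total counts moved the median log2 fold change of all genes in CDK4/6 KD by 0.10. Depth limits SIRT4 most, at 10 to 45 reads per library. The other counts of sirtuins and listed genes past 2-fold stayed within 1.5 times.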

Other observations

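Some listed genes close to sirtuin function fall outside the rule for named genes and were picked after their values were seen. NAMPT, the rate-limiting enzyme of NAD+ salvage, had 448 reads in DMSO, 299 in PD0332991, 338 in scrambled siRNA and 546 in CDK4/6 KD. Its level was 1.53-fold that of scrambled siRNA after CDK4/6 KD (95% counting interval 1.33 to 1.75) and 0.67-fold that of DMSO after PD0332991 (95% interval 0.577 to 0.777). Scrambled siRNA was itself 0.645 times DMSO (95% interval 0.558 to 0.744), and NAMPT had 48.2 CPM in CDK4/6 KD and 49.0 CPM in DMSO. CCAR2, an inhibitor of SIRT1, had 173, 129, 97 and 167 reads in the same order of libraries. Its ratio was 1.62 for CDK4/6 KD over its control (95% interval 1.26 to 2.11), and scrambled siRNA was the low library, at 0.48 times DMSO (95% interval 0.369 to 0.617). Against DMSO the direction of CCAR2 was the opposite, with 14.8 CPM in CDK4/6 KD and 18.9 CPM in DMSO. SOD2, the mitochondrial superoxide dismutase that SIRT3 activates, counted 781 reads after CDK4/6 KD and 1372 in its control (ratio: 0.538, 95% interval 0.492 to 0.588), and its ratio after PD0332991 was 0.909 (95% interval 0.842 to 0.98). IDH2, another target of SIRT3, had a ratio of 1.68 after CDK4/6 KD (95% interval 1.57 to 1.8) and 1.08 after PD0332991 (95% interval 0.992 to 1.17). No difference between the arms was tested.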
